A study of Mus musculus with 17 samples.

Results

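The Ensembl transcripts ENSMUST00000169242, ENSMUST00000084673 and ENSMUST00000155944 are the 3 of 37991 with the most reads of 15 to 50 nt recovered with an antibody to MAEL from mouse testis. They were chosen by that count, with levels about 20 to 50 times those in small RNA of wild-type testis, so values in those libraries are given as a description and carry no test. MAEL (Maelstrom) is a germ cell protein of the piRNA pathway. The study sequenced RNA precipitated from testis with anti-MAEL or with rabbit IgG, and small RNA, mRNA and ribosome footprints of Mael-/- and wild-type testis. All mice were of the 129SvJae strain, and all immunoprecipitates came from wild-type testis. Small RNA of 15 to 50 nt, mRNA and footprints of 26 to 34 nt each had 2 Mael-/- and 2 wild-type libraries. Anti-MAEL had 1 library of 15 to 50 nt, 1 of 50 to 150 nt and 2 of long RNA, a and b, and IgG had 1 of long RNA. No label states that replicate libraries stem from different animals, and the p-values therefore reflect the spread among these libraries, possibly technical. Nor do the labels say what kind of allele Mael-/- is, the age of the mice or how many animals were pooled.

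As background, piRNAs are germ cell small RNAs bound by PIWI proteins, which they direct to transposons and other transcripts. They are cut from long single-stranded precursors, and in meiotic spermatocytes most come from a limited set of genomic clusters. Maelstrom is needed for transposon silencing and for male fertility in mice, and it lies in the nuage, the cytoplasmic granules where piRNA factors gather. Reads of 15 to 50 nt can be piRNAs or other fragments of longer RNA, and the deposited counts do not separate them by length or first base.

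The files pair transcript IDs with lengths but with no gene symbols or coordinates, and 0 of the 3 IDs matched the reference name tables. Genes, positions and roles are therefore not given here, and no sequence is printed. The lengths are 5054 nt for ENSMUST00000169242, 3539 nt for ENSMUST00000084673 and 3543 nt for ENSMUST00000155944. None of the 3 has a coding length in the mRNA and footprint tables. Those tables held 0 counts for all 19705 such transcripts, so the 3 transcripts have no mRNA or footprint level.

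Library totals were 172728187 counts for 15 to 50 nt and 68922710 for 50 to 150 nt with anti-MAEL. They were 5747210 and 10863053 for long RNA with anti-MAEL and 7785650 with IgG. In small RNA they ranged from 4831638 to 21884714 in Mael-/- and from 7776989 to 44416966 in wild type. Libraries of the same group differed by more than sampling noise, with a chi-square statistic of 12.0 to 51.5 per degree of freedom. Levels are in CPM, depth-scaled counts, over a library total with 1 entry per piRNA locus. Intervals are exact binomial intervals at 95% confidence and cover counting error only, since PCR copies of a molecule carry no identifier here.

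In the 15 to 50 nt anti-MAEL library, ENSMUST00000169242 held 2258753 counts, 1.31% of the total (exact interval 1.306 to 1.309). ENSMUST00000084673 held 1784273 counts and ENSMUST00000155944 held 1784271, each 1.03% (exact interval 1.031 to 1.034). The shares of the last 2 cannot be added, because their counts differ by 2 and the same reads may be in both. Among all features, piRNA loci included, the 3 transcripts ranked 5, 7 and 8. Their levels of 13077 CPM, 10329.9 CPM and 10329.9 CPM were 47.3, 37.1 and 20.5 times their mean level in wild-type small RNA. That excess chose the transcripts, and no IgG library of 15 to 50 nt was there to set beside it.

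**Figure D1:**
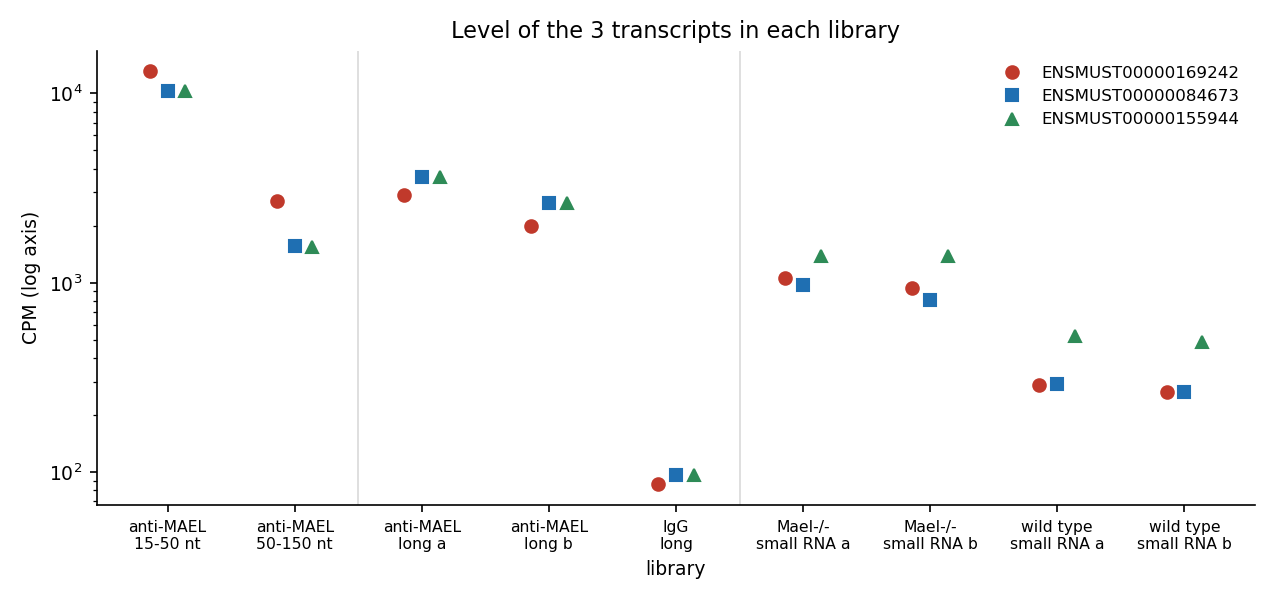
Level of each of the 3 transcripts (colours and symbols) in the 9 libraries that counted them, in CPM on a log axis. The 15 to 50 nt anti-MAEL library is highest at 10329.9 to 13077 CPM, and the IgG library is lowest at 86.2 to 96.7 CPM.

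In the larger size classes, which the choice did not use, ENSMUST00000169242 was highest at 50 to 150 nt, as at 15 to 50 nt, and lowest in long RNA. At 50 to 150 nt ENSMUST00000169242 stood at 2708 CPM (exact interval 2696 to 2720), and ENSMUST00000084673 at 1554 CPM (exact interval 1545 to 1564). In long RNA ENSMUST00000169242 had 2904 CPM in library a and 1991 CPM in library b, and ENSMUST00000084673 had 3601 CPM and 2642 CPM. Per kb of transcript the long-RNA level of ENSMUST00000084673 was also higher, at 882.05 CPM per kb on average against 484.3 CPM per kb for ENSMUST00000169242. The 15 to 50 nt level was 4.83 times the 50 to 150 nt level for ENSMUST00000169242 and 6.65 times for ENSMUST00000084673. It was 5.34 times the mean long-RNA level for ENSMUST00000169242 and 3.31 times for ENSMUST00000084673. Each size-selected class has 1 library and the kits differ between sizes, so these ratios carry no test.

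By rank the 3 transcripts stood out less in the middle size class. Among Ensembl transcripts ENSMUST00000169242 ranked 1 by count at 15 to 50 nt, 80 at 50 to 150 nt, and 15 and 18 in the long-RNA anti-MAEL libraries. It ranked 1212 with IgG, 24 and 39 in Mael-/- small RNA, and 55 and 53 in wild-type small RNA. ENSMUST00000084673 ranked 2, then 101, then 12 and 13 with anti-MAEL. It ranked 1062 with IgG, 30 and 45 in Mael-/- and 53 and 55 in wild type. Counts favour long transcripts: per kb, the 3 ranked 77 to 88 at 15 to 50 nt.

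The transcripts next in rank had counts near those of ENSMUST00000084673 and ENSMUST00000155944 and below that of ENSMUST00000169242. Just outside the choice, ENSMUST00000098117 (3539 nt) held 1784267 counts, ENSMUST00000165401 (2324 nt) 1729177 and ENSMUST00000121728 (2323 nt) 1710213. ENSMUST00000098117 had the same count as ENSMUST00000084673 in 8 of the 9 libraries and differed by 6 counts in the other, so these counts do not separate rank 2 from rank 4. The whole block down to rank 23, a limit set after its values were seen, held 752712 to 2258753 counts, and rank 24 held 547260. Of the 20 transcripts in ranks 4 to 23, 10 have a coding length. All 20 lay over 10-fold above wild-type small RNA at 15 to 50 nt (up to 57.9 times), and over 10-fold above IgG in long RNA (19.8 to 48.4 times). In ranks 24 to 50, 17 of 27 passed the first mark and 4 of 27 the second. The 15 to 50 nt counts behind the first mark also set the ranks. The share of all Ensembl transcripts past either mark was not counted, so these counts have no baseline. The contrast with ranks 24 to 50 depends on the limit of the block and carries no test. Within the block, ENSMUST00000108024 and ENSMUST00000107991 held 927178 and 927175 counts at 15 to 50 nt, and both stood 34.4 times above IgG. The 20 passes are therefore not 20 separate results. No source used here says how reads matching several of these transcripts were counted, so the level of each is uncertain.

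**Figure D2:**
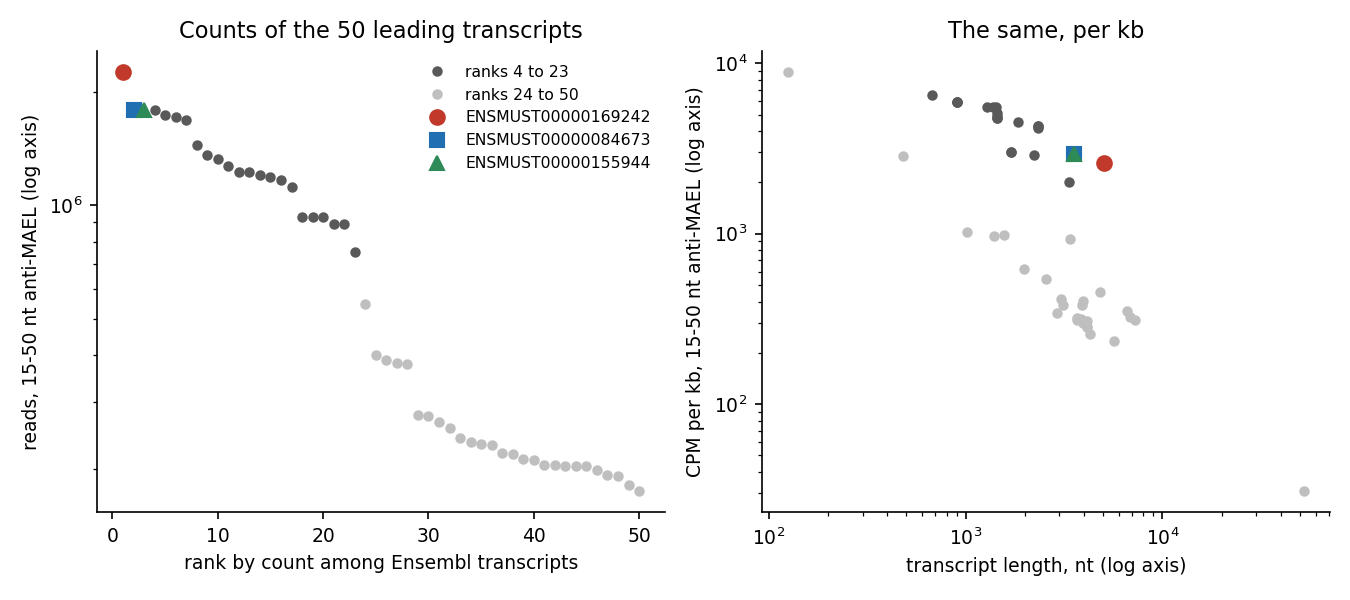
Left, counts of the 50 leading Ensembl transcripts in the 15 to 50 nt anti-MAEL library against their rank, with counts on a log axis; right, the same transcripts as CPM per kb against length, both on log axes. Ranks 1 to 23 hold 752712 to 2258753 counts, and per kb the 3 leading transcripts lie low in that block, at 2587 to 2919 CPM per kb.

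Per kb, the 3 transcripts lay low in this block of 23. At 15 to 50 nt ENSMUST00000169242 had 2587 CPM per kb, rank 22, ENSMUST00000084673 had 2919 CPM per kb, rank 18, and ENSMUST00000155944 had 2916 CPM per kb, rank 20. Ranks 4 to 23 by count ran from 2012 to 6485 CPM per kb with a median of 4772 CPM per kb, and were 672 to 3539 nt long. The shorter ENSMUST00000165401, 2324 nt long, held nearly as many 15 to 50 nt counts as ENSMUST00000084673, but 14312 and 18379 long-RNA counts against 20695 and 28703. The ratio of the 15 to 50 nt level to the mean long-RNA level was 3.31 for ENSMUST00000084673, rank 21 of 23, and 5.34 for ENSMUST00000169242, rank 14. It had a median of 5.59 in ranks 4 to 23.

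ENSMUST00000084673 and ENSMUST00000155944 were indistinguishable with either antibody and differed in total small RNA. Both had 20695 and 28703 counts in the long-RNA anti-MAEL libraries and 753 with IgG. In the size-selected anti-MAEL libraries ENSMUST00000155944 had 2 counts fewer at 15 to 50 nt and 8 fewer at 50 to 150 nt. In Mael-/- small RNA it had 30295 and 6701 counts, against 21200 and 3898 for ENSMUST00000084673. In wild-type small RNA it had 23144 and 3793 counts, against 12969 and 2057. The difference of 9095 and 2803 counts in Mael-/- is 415.6 CPM and 580.1 CPM. In wild type, 10175 and 1736 counts are 229.1 CPM and 223.2 CPM. It made up 30.0% and 41.8% of the transcript's counts in Mael-/- and 44.0% and 45.8% in wild type, for transcripts that differ in length by 4 nt. The Mael-/- values were above the wild-type values in CPM and below them as a share, and no test was made of them. Scaled to library totals, the median log2 fold change of Mael-/- over wild type was 1.42 over all features tested.

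A second pair in the block, chosen after its values were seen, had differences of like size. ENSMUST00000107998 and ENSMUST00000107991, both 909 nt, had equal counts in the 3 long-RNA immunoprecipitates. ENSMUST00000107998 had 428.7 CPM and 571.9 CPM more in Mael-/- small RNA, and 226.3 CPM and 211.5 CPM more in wild type. In the size-selected anti-MAEL libraries it had 18 and 5 counts fewer. For ENSMUST00000155944 the level in total small RNA thus holds counts that are not found in its anti-MAEL levels, and its ratio of 20.5 over wild type is lower than the 37.1 of ENSMUST00000084673 by that difference alone. No source used here says whether the tables of small RNA and of immunoprecipitates were counted alike, and the part of counting in the difference was not tested.

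**Figure D3:**
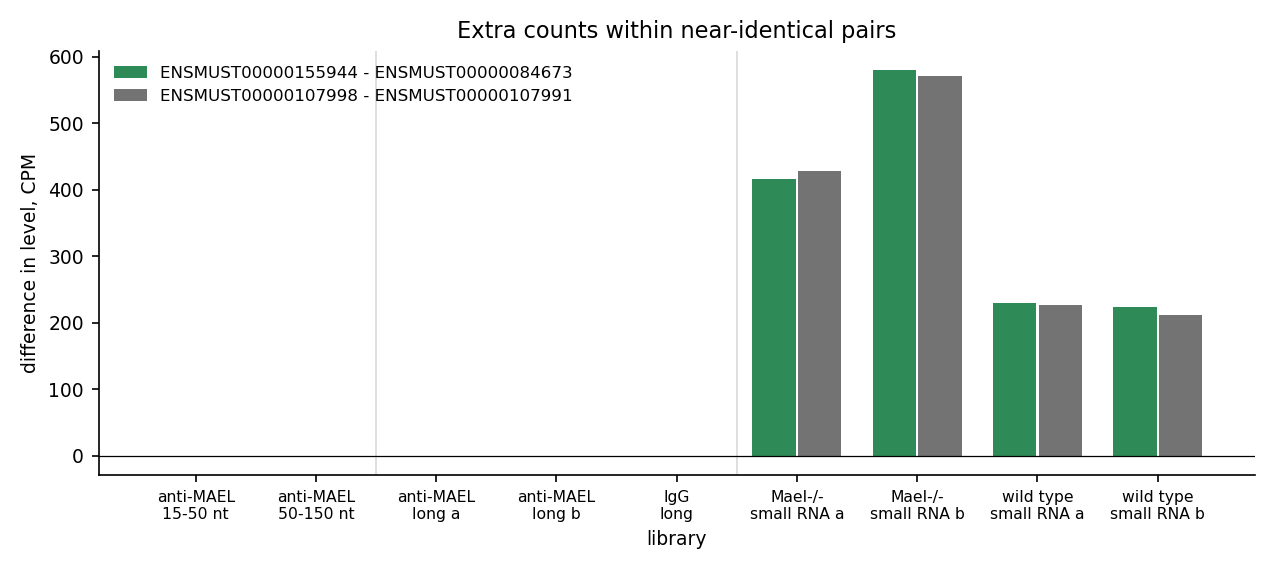
Difference in level, in CPM, between ENSMUST00000155944 and ENSMUST00000084673 (green) and between ENSMUST00000107998 and ENSMUST00000107991 (grey) in the 9 libraries. Differences are 211.5 to 580.1 CPM in total small RNA and within 1 CPM of 0 in the 5 immunoprecipitates.

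Long RNA of the 3 transcripts was far more abundant with anti-MAEL than with IgG. ENSMUST00000169242 had 16691 and 21626 counts with anti-MAEL, 2904 CPM and 1991 CPM, against 671 counts with IgG, 86.2 CPM (exact interval 79.8 to 92.96). ENSMUST00000084673 and ENSMUST00000155944 had 3601 CPM and 2642 CPM with anti-MAEL, against 96.7 CPM (exact interval 89.9 to 103.9) with IgG. The anti-MAEL means were 2447 ± 646 CPM for ENSMUST00000169242 and 3122 ± 678 CPM for the others (SD, n = 2). The mean ratios over IgG were 28.4 for ENSMUST00000169242 and 32.3 for the others.

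The fitted log2 fold change of anti-MAEL over IgG was 5.26 ± 1.33 (SE) for ENSMUST00000169242 and did not pass the threshold (edgeR quasi-likelihood, Benjamini-Hochberg adjusted p = 0.116). It was 5.43 ± 1.45 for ENSMUST00000084673 and ENSMUST00000155944 (edgeR quasi-likelihood, adjusted p = 0.142). So 0 of the 3 were called at an adjusted p of 0.05, where 1.28% of all features tested were called higher. Unadjusted, all 3 had p under 0.05 (edgeR quasi-likelihood, 0.00292 and 0.00399), as did 1086 of the 16066 features in the same direction. ENSMUST00000084673 and ENSMUST00000155944 had equal counts in these libraries, so they are not separate results. By size of fold change the 3 transcripts ranked 60 to 65 of 16066 features, whose median was 0.02. The median was 2.33 for 99 piRNA loci named by chromosome band and 0.31 for 113 named for genes. It was 0.10 for transcripts with no coding length and -0.02 for those with one.

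The call depended on the test, the filter and the scaling. With DESeq2 size factors, which called 2.02% of features higher, none of the 3 passed (edgeR quasi-likelihood, adjusted p = 0.0813 for ENSMUST00000169242 and 0.104 for the others). DESeq2 called all 3 higher, with log2 fold changes of 5.26 and 5.43 (adjusted p = 2.64e-18 and 2.66e-20) in a fit that called 2.18% of features higher. In the edgeR quasi-likelihood fit without the filter on low counts, which called 2.49% higher, all 3 were called (adjusted p = 0.00105 and 0.00220). Scaled to library totals, which called 0.629% higher, all 3 were called too (edgeR quasi-likelihood, adjusted p = 0.0210 and 0.0127). Without anti-MAEL library a the log2 value was 4.57 for ENSMUST00000169242 and 4.81 for ENSMUST00000084673 and ENSMUST00000155944. Without library b it was 5.75 for ENSMUST00000169242 and 5.89 for the others. These values set 1 library against 1 and have no test. The single IgG library gives no spread of its own. The kit for long RNA keeps no strand, so antisense reads of these transcripts cannot be told apart from sense reads.

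**Figure D4:**
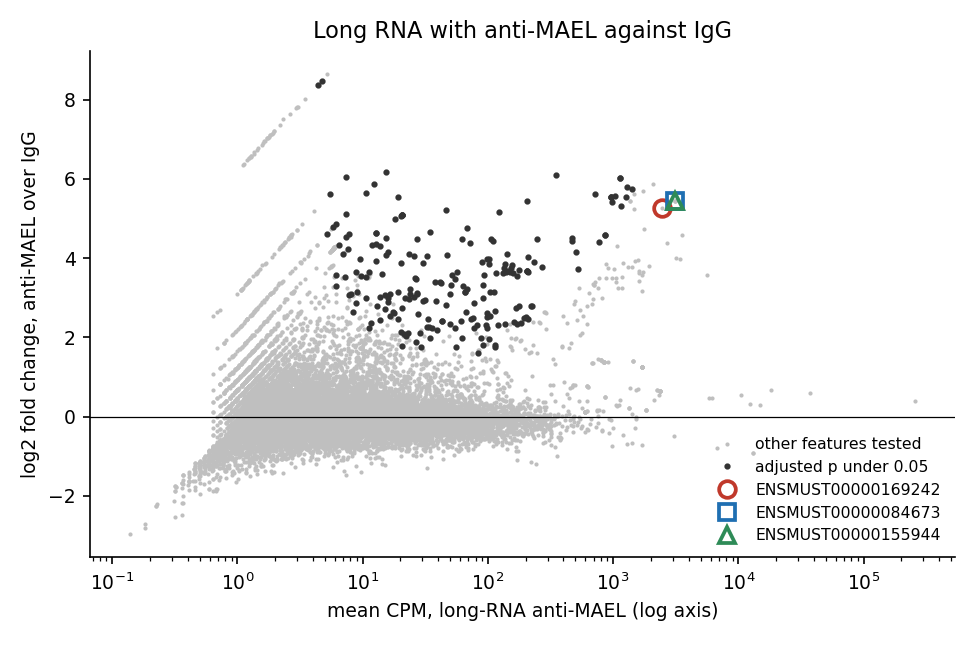
Log2 fold change of long RNA with anti-MAEL over IgG against the mean CPM with anti-MAEL (log axis), for 16066 features, with those called at an adjusted p under 0.05 in black. The 3 transcripts lie at 5.26 and 5.43, at 2447 to 3122 CPM.

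In total small RNA the wild-type libraries entered the choice of the 3 transcripts, so their values by genotype are a description and no p is given. Scaled to library totals, their log2 fold changes of Mael-/- over wild type exceeded those of 51.4% to 62.5% of the 9906 features tested. ENSMUST00000169242 had 1059.8 CPM and 938 CPM in Mael-/-, against 287.3 CPM and 266.2 CPM in wild type. ENSMUST00000084673 had 969 CPM and 807 CPM in Mael-/-, against 291.98 CPM and 264.5 CPM in wild type. ENSMUST00000155944 had 1384 CPM and 1387 CPM in Mael-/-, against 521 CPM and 488 CPM in wild type. Means were 999 ± 85.8 CPM in Mael-/- and 277 ± 14.9 CPM in wild type for ENSMUST00000169242, and 1386 ± 1.84 CPM in Mael-/- and 504 ± 23.6 CPM in wild type for ENSMUST00000155944 (SD, n = 2 each). The mean ratios of Mael-/- over wild type were 3.61 for ENSMUST00000169242, 3.19 for ENSMUST00000084673 and 2.75 for ENSMUST00000155944. Most features shifted with them: scaled to library totals the median log2 fold change over all 9906 features tested was 1.42, and with TMM scaling it was 0.15.

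With TMM scaling the fitted log2 fold change was 0.69 ± 0.521 (SE) for ENSMUST00000169242, 0.52 ± 0.526 for ENSMUST00000084673 and 0.27 ± 0.518 for ENSMUST00000155944. Relative to the median feature these values were 0.54, 0.37 and 0.13. The edgeR quasi-likelihood test called 3.82% of all features higher. The medians were -1.72 for piRNA loci named by band, -0.02 for those named for genes, 0.11 for coding transcripts, 0.29 for transcripts with no coding length and 0.84 for transcripts of up to 150 nt.

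The values moved with the scaling and with the Mael-/- library left out. Scaled to library totals the log2 fold changes were 1.86, 1.68 and 1.46, where 24.7% of all features were called higher. Relative to the shifted median these were 0.44, 0.26 and 0.04. Without Mael-/- library b the values with TMM scaling were 1.23, 1.09 and 0.75, where 10.3% of features were called higher. Without Mael-/- library a they were -0.15, -0.37 and -0.45. The sign with TMM scaling therefore changed when Mael-/- library a was left out. In CPM each transcript still stood above wild type in Mael-/- library b. Levels there were 938 CPM, 807 CPM and 1387 CPM, against 287.3 CPM, 291.98 CPM and 521 CPM in wild-type library a, the higher wild-type library. The part of the scaling in the change of sign was not tested. In whole testis, fewer cells of a type and less RNA per cell cannot be told apart.

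**Figure D5:**
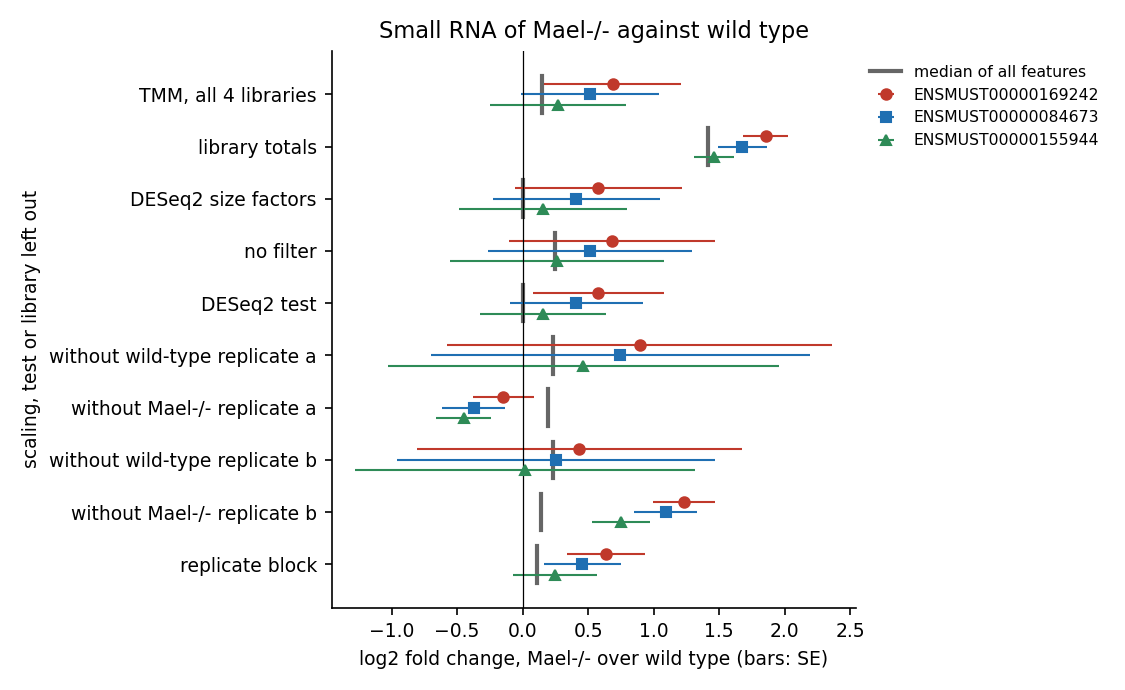
Log2 fold change of small RNA in Mael-/- over wild type for the 3 transcripts (SE as bars) under each scaling, test or library left out, with the median of all features as a grey mark. Values are 0.27 to 0.69 with TMM scaling, 1.46 to 1.86 with library totals, and below 0 without Mael-/- library a.

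Over the 9 libraries the levels of the 3 transcripts were alike, with Pearson correlations of log2 CPM of 0.973 to 0.986 between them. The features most like ENSMUST00000169242 among 8331 with a mean of at least 5 CPM were ENSMUST00000107991 and ENSMUST00000108024, both 909 nt, with r = 0.998. For ENSMUST00000084673 they were ENSMUST00000098117, with r = 1.00, and ENSMUST00000165401, with r = 0.996. For ENSMUST00000155944 they were ENSMUST00000098119 (r = 0.995) and ENSMUST00000107981 (r = 0.991). These correlations are over libraries of several kinds that differ in size class and depth, may rest on shared reads, and carry no p. The 9 libraries include those that chose the 3 transcripts, by a high and a low level. Part of the likeness was therefore set by that choice. No feature had the same count as any of the 3 in all 9 libraries.

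Some of these most similar transcripts have a coding length and so have a level in mRNA, which does not stand for that of the 3 transcripts. ENSMUST00000107991 had 6.96 CPM and 15.01 CPM in Mael-/- mRNA, against 50.9 CPM and 58.5 CPM in wild type. ENSMUST00000108024 had the same counts as ENSMUST00000107991 in every mRNA and footprint library. ENSMUST00000098119 had 11.3 CPM and 12.3 CPM in Mael-/- mRNA, against 78.8 CPM and 74.7 CPM in wild type. ENSMUST00000107981 had 18.8 CPM and 22.5 CPM in Mael-/- mRNA, against 91.5 CPM and 96.8 CPM in wild type. In each of them both Mael-/- libraries lay below both wild-type libraries, as did 28.1% of the 9358 coding transcripts averaging 5 CPM or more in mRNA, whose median ratio of Mael-/- over wild type was 1.33. In small RNA, scaled to library totals, the mean ratio of Mael-/- over wild type was 3.84 for ENSMUST00000107991, 3.17 for ENSMUST00000098119 and 2.14 for ENSMUST00000107981. On that scale most features were higher in Mael-/-, with a median log2 fold change of 1.42 over all 9906 features tested. In footprints these coding transcripts had 0.599 to 2.997 CPM in Mael-/-, from 1 to 5 counts per library. In wild type they had 3.59 to 7.79 CPM, from 12 to 39 counts. How many other coding transcripts were likewise lower in footprints was not counted. No test was made of these values.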

How the data were processed

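Counts of reads per feature were used as deposited, raw and with 1 library per table. Build mm9 and the tools TopHat2 2.0.7, Bowtie2 2.0.6 and CASAVA 1.8 appear in the submitters' processing notes, with no role. By the labels' protocols, libraries of long RNA used a kit that does not keep strand and small RNA libraries one that does; the handling of strand and of multiply matching reads is stated in no source used here. For each piRNA locus the entry with the most counts over the 9 libraries was kept.

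Mael-/- was set against wild type in small RNA (4 libraries) and anti-MAEL against IgG in long RNA (3 libraries, the single IgG library assumed to vary like the others). Tests used edgeR 4.0.16 in R 4.3.3 by quasi-likelihood, with TMM, filterByExpr and Benjamini-Hochberg adjustment over all features at 0.05. Alternatives were DESeq2 1.42.0, other scalings, no filter, libraries left out and a replicate block. The SE of edgeR values was back-calculated as the absolute log2 fold change over the square root of the test's F statistic. DESeq2 gave its own SE. Log2 correlations used a pseudocount of 0.5 CPM. For the 3 transcripts no p is given by genotype, since the wild-type libraries entered their choice. The tests were tried on simulated data. Named features were the 3 transcripts, the next 3 in rank and the 2 features most like each. ENSMUST00000107998 was added after its values were seen. The members and lists were chosen with earlier results of these data known. The files' IDs matched 0 names in the reference tables, so Mael itself, cell type markers, and with them a check of the tissue, were not analysed here.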

Additional observations from a re-analysis of the deposited data

How the results depend on the processing

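For anti-MAEL over IgG, all 3 transcripts kept their direction under the alternatives tried. With library totals the log2 values were 4.83, 5.01 and 5.01, without the filter 5.24, 5.41 and 5.41, and with DESeq2 5.26, 5.43 and 5.43, all then past the threshold. The features called higher were 206, against 101, 661 and 350 under these settings and 325 with DESeq2 size factors. For small RNA, the values of ENSMUST00000169242, ENSMUST00000084673 and ENSMUST00000155944 were 1.86, 1.68 and 1.46 with library totals. Leaving out 1 library gave -0.15 to 1.23, -0.37 to 1.09 and -0.45 to 0.75, with reversals to -0.15, -0.37 and -0.45 without Mael-/- replicate a. The features called higher were 378, against 2449 with library totals, 226 with size factors, 233 without the filter and 27 to 1218 with 1 library left out. The letters a and b may name no real pairing: with a replicate block 2318 were higher, the members' values were 0.64, 0.46 and 0.25. Same-lettered libraries deviated together (r = 0.506), which is a hint from 2 letters only. In both genotypes library a was deeper than library b, and the part of depth in this correlation was not tested. As percent of 15 to 50 nt anti-MAEL counts, the 3 transcripts held 1.836%, 1.451% and 1.451% of Ensembl transcripts, 1.122%, 0.886% and 0.886% of all entries, and 0.259%, 0.2919% and 0.2916% per kb. The causes of these shifts were not tested. Fits of mRNA, footprints and their ratio, and the fit with mRNA libraries, were not run because the 3 transcripts have no counts there. With 1 library left out, anti-MAEL over IgG gave no count of calls.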
